A study of Mus musculus with 6 samples.

Results

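Notch signalling was examined in injured mouse carotid arteries through 10 genes, namely the receptors Notch1, Notch2, Notch3 and Notch4, the ligands Jag1 and Dll4, and the target genes Hes1, Hey1, Hey2 and Heyl. The members were all probe sets (groups of short array probes that together measure a transcript) annotated to exactly 1 of these symbols. This gave 20 probe sets of 10 genes, out of 45037 probe sets tested and 18193 genes that had a probe set of their own. All 10 genes were measured, with 1 to 3 probe sets each, and none was removed by a filter.

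The arteries were collected 14 days after wire injury, a model in which a guidewire is passed through the carotid lumen and a neointima forms over the following weeks. The transgene of SMC-IRF9-TG mice holds full-length mouse Irf9 cDNA driven by the mouse SM22α promoter, which is active in smooth muscle cells, and NTG mice are their non-transgenic controls. Each group had 3 arrays, and each array measured 400 ng of total RNA from a pool of 3 to 5 vessels. All mice were C57BL/6 by the labels, and by the methods of the study they were male and 10 to 12 weeks old. Both groups were injured, so no array shows an uninjured vessel. The study worked mainly with 1 of its transgenic lines, and the labels do not name the line on the arrays. Whole vessels were extracted, so in these bulk samples fewer cells of a type and less RNA per cell cannot be told apart.

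In the Notch pathway, a ligand on one cell binds a receptor on its neighbour, metalloproteinases and then γ-secretase cut the receptor, and the freed intracellular domain enters the nucleus, where it joins the DNA-binding protein RBPJ. The Hes and Hey genes, which encode transcriptional repressors, are the best known genes switched on in this way. In arteries the pathway is known for setting arterial identity and for the differentiation of smooth muscle, with Notch3 and Jag1 prominent in the vessel wall and Notch4 and Dll4 in endothelium.

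The deposited values are log2 levels, and the array medians lay between 3.42 and 3.66. Pools of SMC-IRF9-TG arteries correlated with each other at r = 0.980 to 0.985 across probe sets, and NTG pools at 0.927 to 0.955. The Irf9 probe set had 5.46, 5.41 and 5.58 in the SMC-IRF9-TG pools, against 4.75, 5.43 and 5.36 in the NTG pools, and the groups overlapped. Where its probes lie relative to the transgene was not established, so this level does not check the labels. The arrays also differed in Xist, RNA quality and spike-in controls. Xist, an RNA of the inactive X chromosome, lay between 2.94 and 3.72 in the SMC-IRF9-TG pools, against 9.94, 9.50 and 4.08 in NTG pools 1, 2 and 3. The levels in NTG pools 1 and 2 go against the male sex that the study's methods give for the mice. The gap between the 3′ and 5′ Actb control probes, which widens as RNA degrades, was 1.56 to 2.50 log2 units in the SMC-IRF9-TG pools, against 2.21, 7.09 and 3.04 in the NTG pools. Poly-A spike-in controls averaged 5.03, 4.55 and 9.14 in the SMC-IRF9-TG pools, against 11.75, 7.53 and 10.01 in the NTG pools, and bioB hybridization controls averaged 6.54 to 7.20 in the SMC-IRF9-TG pools, against 8.71 to 11.28 in the NTG pools. The Xist and poly-A differences were addressed only by the fits named below, and no fit had a term for RNA quality or the bioB controls. In bioB every SMC-IRF9-TG array lay below every NTG array. For each result below that difference therefore cannot be told apart from genotype.

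The tissue label was checked against 10 genes of contractile smooth muscle, all of which were measured above the lower quartile of the arrays. None of these genes passed the test, and their summed linear level was 23618 to 24488 in the SMC-IRF9-TG pools, against 17029 to 24067 in the NTG pools. Acta2, smooth muscle actin, averaged 13.56 in SMC-IRF9-TG and 13.42 in NTG, and Tagln, which encodes SM22α, averaged 12.48 in SMC-IRF9-TG and 11.37 in NTG. Over all genes, 3.11% were called higher and 0.511% lower. Macrophage genes differed between the groups, as 12 of 13 were called higher in SMC-IRF9-TG, with a summed level of 3981 to 5311 in the SMC-IRF9-TG pools, against 201 to 343 in the NTG pools (the one not called, Itgam, lay under the lower quartile in both groups). Fibroblast genes did too, with 6 of 9 called higher and sums of 20004 to 21711 in the SMC-IRF9-TG pools, against 5760 to 6207 in the NTG pools. Of 12 endothelial genes, 2 were called higher, which were picked out by name only once their values were known. These were Tie1, by 1.75 log2 units (adjusted p = 0.0349, limma), and Erg, by 1.37 (adjusted p = 0.0387). The endothelial sum was 1294 to 1418 in the SMC-IRF9-TG pools, against 2223, 1500 and 882 in NTG pools 1, 2 and 3. No gene of T cells (5 measured, sums 74.8 to 115 in SMC-IRF9-TG and 53.3 to 93.7 in NTG), adipocytes (5, 341 to 593 in SMC-IRF9-TG and 569 to 748 in NTG), skeletal muscle (7, 71.0 to 80.9 in SMC-IRF9-TG and 91.6 to 108 in NTG) or nerve (5, 78.6 to 107 in SMC-IRF9-TG and 60.8 to 83.3 in NTG) passed. Adipoq and Cidec of the adipocyte list, Nefm of the nerve list and Myh2, Myh4 and Tnnt3 of the muscle list lay under the lower quartile in both groups. Of 6 genes of thyroid and epithelium, Cdh1 was called lower, and the sums were 155 to 185 in SMC-IRF9-TG and 202 to 209 in NTG pools. The part of these cells in the Notch results was not tested.

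Hes1, a classical Notch target, was lower in SMC-IRF9-TG arteries, and 1 probe set of the receptor Notch4 was higher. The other 18 of the 20 probe sets did not pass the test at an adjusted p of 0.05 (limma, Benjamini-Hochberg over all 45037 probe sets). In each direction 1 of the 20 was called, beside 2.37% of all probe sets called higher and 0.373% called lower, and nothing is read from these counts about the set as a whole. Differences of the 20 probe sets were split evenly, with 10 above and 10 below 0, and their median was −0.01 log2 units, beside −0.13 over all probe sets, of which 17474 were above 0. The groups did not overlap in 4 of the 20, beside 31.4% of all probe sets, and in 3 of these SMC-IRF9-TG was the upper group (12.1% of all) and in 1 the lower (19.2%). With each gene taken by its brightest probe set (that of highest mean over all 6 arrays), 1 gene was called higher and 1 lower (3.11% and 0.511% of all genes), and the median difference was −0.01, beside −0.05 over all genes. With 3 pools against 3, an exact permutation test of any single probe set cannot give a 2-sided p below 0.1.

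**Figure D1:**
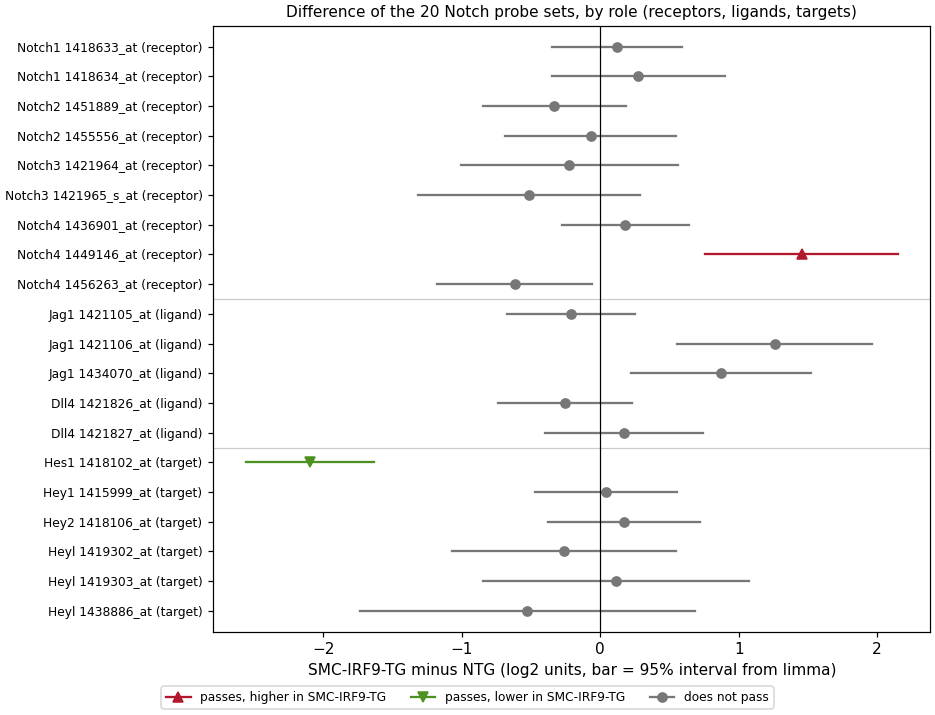
Difference between SMC-IRF9-TG and NTG arteries in log2 units (horizontal axis) for the 20 probe sets, ordered as receptors, ligands and targets, with the 95% interval from limma as a bar. Hes1 lies at −2.10 and Notch4 1449146_at at 1.45, and both passed the test (triangles), while the 18 others (circles) did not.

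Among the receptors, Notch4 stood out in 1 of its 3 probe sets. Its brightest probe set (1449146_at) had 5.25, 4.87 and 5.77 in SMC-IRF9-TG pools 1, 2 and 3, against 4.29, 3.40 and 3.85 in NTG pools 1, 2 and 3. Every SMC-IRF9-TG pool was above every NTG pool, with the highest NTG pool 0.58 log2 units below the lowest SMC-IRF9-TG pool. The means were 5.30 ± 0.45 in SMC-IRF9-TG and 3.84 ± 0.44 in NTG (SD, n = 3 each), a difference of 1.45 (SE 0.30, 95% interval 0.76 to 2.15, limma adjusted p = 0.0466, exact permutation p = 0.1), or 2.74-fold. It passed in none of the 6 fits that left out 1 pool each (adjusted p = 0.0625 to 0.160, differences of 1.22 to 1.67). The other Notch4 probe sets did not pass. In 1436901_at the levels were 2.95, 2.95 and 3.21 in SMC-IRF9-TG, against 3.00, 2.62 and 2.96 in NTG, a difference of 0.18 (95% interval −0.28 to 0.64, adjusted p = 0.596). In 1456263_at they were 2.39, 2.37 and 2.83 in SMC-IRF9-TG, against 3.42, 2.75 and 3.29 in NTG, a difference of −0.62 (−1.18 to −0.06, adjusted p = 0.192). The 3 probe sets of Notch4 therefore lay on both sides of 0. Those that did not pass were dim, with means of 3.04 in SMC-IRF9-TG and 2.86 in NTG (1436901_at) and of 2.53 and 3.15 (1456263_at). A filter at the median of the probe-set means left both out. With all 3 probe sets averaged, Notch4 differed by 0.34 (95% interval −0.18 to 0.86) and did not pass (limma adjusted p = 0.371). Beside the call, of the 12 endothelial genes Tie1 and Erg were higher in SMC-IRF9-TG and 10 did not pass, with 8 of the 12 differences above 0 and 4 below. Among those that did not pass, Vwf had 8.08, 8.23 and 8.49 in the SMC-IRF9-TG pools, against 9.72, 9.34 and 8.18 in the NTG pools. The part of endothelial cells was not tested.

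The start region of Notch4 is shown because this receptor was called higher, and because IRF9 acts on DNA through a known element, the interferon-stimulated response element. RefSeq windows from 250 bases before to 10 bases after the transcription start (GRCm38.p6) were searched on both strands for that element (GAAA and, after any 2 bases, GAAA again), for GTGGGAA, the letters bound by RBPJ, and for CACGTG, an E-box. The RBPJ letters can share bases with either of the others, and the motifs occurred in 3.07%, 5.58% and 6.34% of 32851 windows. A window was found for 7 of the 10 genes (not for Hes1, Hey1 and Heyl). The Notch4 window lies on the plus strand at chr17:34564045-34564304 and holds none of the 3 motifs. The Hey2 window, on the minus strand at chr10:30842774-30843033, is shown because it is the only one of the 7 with a match, holding the RBPJ letters at bases 44 to 50 and 247 to 253 (capitals, the first of them on the opposite strand). No window of the 7 held the interferon element or the E-box. A match is a stretch of letters and not a shown binding site, and both windows read 5′ to 3′ on the gene's strand.
Notch4: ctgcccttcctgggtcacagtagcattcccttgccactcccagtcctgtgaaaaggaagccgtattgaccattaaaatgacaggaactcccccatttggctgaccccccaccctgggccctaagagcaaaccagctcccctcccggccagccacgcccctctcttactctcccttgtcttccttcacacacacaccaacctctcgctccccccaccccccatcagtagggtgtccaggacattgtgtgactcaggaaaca
Hey2: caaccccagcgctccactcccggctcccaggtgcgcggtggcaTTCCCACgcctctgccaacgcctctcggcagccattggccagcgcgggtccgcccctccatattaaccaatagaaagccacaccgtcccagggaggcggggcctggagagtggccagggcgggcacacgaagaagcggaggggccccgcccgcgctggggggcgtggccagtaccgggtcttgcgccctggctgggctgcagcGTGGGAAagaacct

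The receptors that smooth muscle uses most, Notch3 and Notch2, and the broadly expressed Notch1, did not pass in any probe set. Notch3, the receptor best known from arterial smooth muscle, had 6.25, 5.64 and 6.94 in the SMC-IRF9-TG pools, against 7.21, 6.77 and 6.39 in the NTG pools by its brightest probe set (1421965_s_at, whose suffix marks probes that can match several transcripts). SMC-IRF9-TG pool 3 lay above NTG pools 2 and 3, so the groups overlapped. The difference was −0.52 (95% interval −1.32 to 0.28, adjusted p = 0.390), and that of 1421964_at was −0.22 (−1.01 to 0.56, adjusted p = 0.701). Notch2 had 7.55, 7.20 and 7.64 in SMC-IRF9-TG and 7.51, 8.01 and 7.07 in NTG by 1455556_at. Here both the highest and the lowest pool were NTG pools, and the difference was −0.07 (−0.69 to 0.55, adjusted p = 0.890). The second Notch2 probe set, 1451889_at, differed by −0.33 (−0.85 to 0.18, adjusted p = 0.391). Notch1 had 6.60, 6.47 and 6.83 in SMC-IRF9-TG and 6.85, 6.38 and 5.85 in NTG by 1418634_at, a difference of 0.27 (−0.35 to 0.90, adjusted p = 0.552). Its NTG pools alone spanned 1.01 log2 units and enclosed all the SMC-IRF9-TG pools. The other Notch1 probe set, 1418633_at, differed by 0.12 (−0.35 to 0.59, adjusted p = 0.727). For these 3 receptors the intervals still hold changes of up to 0.90 log2 units upward and 1.32 downward, so their levels were not shown to be alike.

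**Figure D2:**
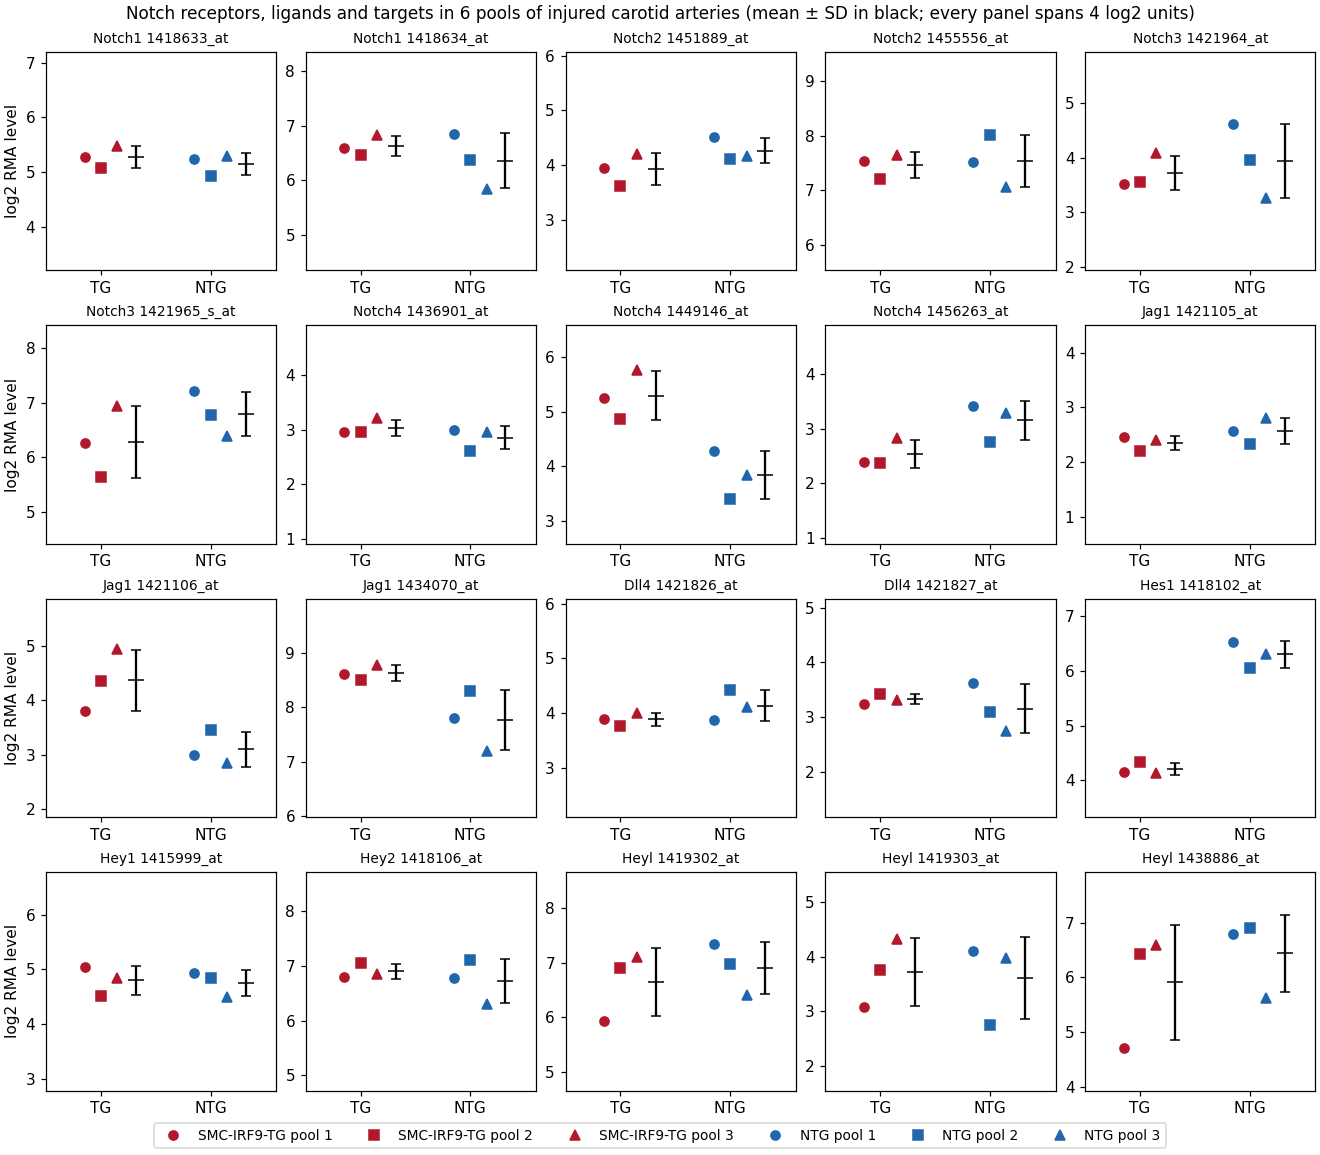
Log2 level (vertical axis, every panel spanning 4 log2 units) of the 20 probe sets in each pool, with SMC-IRF9-TG pools in red at the left and NTG pools in blue at the right of a panel, and the mean ± SD of the 3 pools as black bars. The groups are apart in Hes1, Notch4 1449146_at, Jag1 1434070_at and Jag1 1421106_at, and overlap in the other 16 panels.

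Of the ligands, Jag1 had the larger differences, and neither ligand passed the test. Jag1, a ligand of endothelium and smooth muscle, had 8.61, 8.49 and 8.78 in SMC-IRF9-TG pools 1, 2 and 3 by its brightest probe set (1434070_at), against 7.79, 8.29 and 7.19 in NTG pools 1, 2 and 3. The SMC-IRF9-TG pools were all above the NTG pools, and lay within 0.29 log2 units of each other, while the NTG pools spanned 1.10. The means were 8.63 ± 0.14 in SMC-IRF9-TG and 7.76 ± 0.55 in NTG (SD, n = 3 each), a difference of 0.87 (SE 0.28, 95% interval 0.22 to 1.52, limma adjusted p = 0.140). A second probe set (1421106_at) had 3.81, 4.34 and 4.93 in SMC-IRF9-TG, against 2.99, 3.46 and 2.85 in NTG. Again no pool overlapped, and the difference was 1.26 (0.56 to 1.97, adjusted p = 0.0738). The third, 1421105_at, had 2.45, 2.20 and 2.39 in SMC-IRF9-TG, against 2.56, 2.34 and 2.80 in NTG, with a difference of −0.22 (−0.68 to 0.25, adjusted p = 0.528). Both group means of that probe set lay under the lower quartile of the arrays, so its size is not read. The Jag1 difference at the brightest probe set was 0.59 without NTG pool 3, the lowest pool, and 1.14 without NTG pool 2, the highest NTG pool (adjusted p = 0.168 and 0.0505). With its 3 probe sets averaged, Jag1 differed by 0.64 and did not pass (limma adjusted p = 0.103).

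Dll4, the Delta-like ligand of arterial endothelium, did not pass in either probe set. By its brightest probe set (1421826_at) it averaged 3.88 ± 0.12 in SMC-IRF9-TG and 4.14 ± 0.28 in NTG (SD, n = 3 each), a difference of −0.25 (−0.74 to 0.23, adjusted p = 0.477). The groups overlapped, since NTG pool 1 lay below 2 of the SMC-IRF9-TG pools. In 1421827_at the levels were 3.24, 3.42 and 3.32 in SMC-IRF9-TG and 3.62, 3.10 and 2.74 in NTG, a difference of 0.17 (−0.40 to 0.74, adjusted p = 0.688).

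Hes1, a basic helix-loop-helix repressor, had the largest difference of the 20 probe sets. Its single probe set (1418102_at) read 4.15, 4.33 and 4.13 in SMC-IRF9-TG pools 1, 2 and 3, against 6.54, 6.05 and 6.32 in NTG pools 1, 2 and 3. Each SMC-IRF9-TG pool was below each NTG pool, with a gap of 1.73 log2 units between the groups and no more than 0.49 within either. The means were 4.20 ± 0.11 in SMC-IRF9-TG and 6.30 ± 0.24 in NTG (SD, n = 3 each), a difference of −2.10 (SE 0.20, 95% interval −2.56 to −1.64, limma adjusted p = 0.00224, exact permutation p = 0.1), which is 0.234 of the NTG level. Without each pool in turn the difference stayed between −2.22 and −1.98 and passed in all 6 fits (adjusted p = 0.00358 to 0.0166). Hes1 was listed by the study from these same arrays, so its place among the members adds no separate evidence for the direction. Primers for Hes1 are also among those of the study's real-time PCR, but no PCR values were used here. With a block for the 2 NTG pools of high Xist the difference was −2.11 (adjusted p = 0.0438). With a block for the 2 SMC-IRF9-TG pools of low poly-A controls it was −2.17 and did not pass (adjusted p = 0.0790, within a range of 0.000971 to 0.0849 over all alternatives).

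None of the Hey genes passed the test. Hey1, an effector of arterial identity, had 5.05, 4.51 and 4.84 in the SMC-IRF9-TG pools, against 4.94, 4.84 and 4.49 in the NTG pools (1415999_at), a difference of 0.04 (−0.47 to 0.55, adjusted p = 0.923). Hey2, its close relative in arteries and heart, had 6.79, 7.05 and 6.86 in SMC-IRF9-TG and 6.78, 7.10 and 6.31 in NTG (1418106_at), a difference of 0.17 (−0.38 to 0.72, adjusted p = 0.673). In both genes the pools of the groups were interleaved, and NTG pool 3 was the lowest of the 6. Heyl, the third Hey repressor, had 5.94, 6.91 and 7.10 in SMC-IRF9-TG and 7.35, 6.97 and 6.41 in NTG by its brightest probe set (1419302_at), a difference of −0.26 (−1.07 to 0.55, adjusted p = 0.666). SMC-IRF9-TG pool 1 was the lowest of the 6 there and also in 1438886_at, with 4.70, 6.43 and 6.60 in SMC-IRF9-TG pools 1, 2 and 3, against 6.80, 6.90 and 5.62 in the NTG pools. That probe set differed by −0.53 (−1.74 to 0.68, adjusted p = 0.554) and the third, 1419303_at, by 0.12 (−0.85 to 1.08, adjusted p = 0.882). Whether the difference of Hes1 is unlike that of each Hey gene was not tested.

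The low values of the members were unevenly spread over the pools. By the brightest probe set of each gene, NTG pool 3 was the lowest of the 3 NTG pools in 7 of 10 genes and the lowest of all 6 in 5 (Notch1, Notch2, Jag1, Hey1 and Hey2). Its median deviation from the NTG mean over the 10 genes was −0.41 log2 units, beside 0.04 over all probe sets. NTG pools 1 and 2 deviated by 0.21 and 0.07, and were the highest of all 6 pools in 4 and 3 genes. SMC-IRF9-TG pool 2 was the lowest of its group in 7 genes, with a median deviation of −0.15, while SMC-IRF9-TG pools 1 and 3 deviated by −0.03 and 0.17. The same NTG pool 3 had the lowest endothelial sum and the lowest Xist level of its group. The part of these in the members' levels was not tested.

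The rest of the pathway was followed through 48 other genes with a probe set of their own. By their brightest probe sets 2 were called higher and none lower (limma; 3.11% and 0.511% of all genes), and 46 did not pass. Their median difference was 0.09 log2 units, and the groups did not overlap in 18 of the 48 genes (11 above and 7 below), beside 32.2% of all genes. Both calls were metalloproteinases that can cut Notch receptors before γ-secretase does, and both genes are also known for releasing other surface proteins.

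Adam10, the main protease of ligand-dependent Notch cleavage, had 9.30, 8.75 and 8.34 in SMC-IRF9-TG pools 1, 2 and 3, against 6.98, 7.01 and 7.08 in NTG pools 1, 2 and 3 (1428103_at). The groups were apart by 1.26 log2 units, with means of 8.80 ± 0.48 in SMC-IRF9-TG and 7.03 ± 0.05 in NTG (SD, n = 3 each) and a difference of 1.77 (1.18 to 2.36, limma adjusted p = 0.0125). Leaving out NTG pool 1 or SMC-IRF9-TG pool 2 gave 1.75 and 1.79, which did not pass (adjusted p = 0.0530 and 0.0657, within a range of 0.00794 to 0.367 over all alternatives). A second Adam10 probe set (1450105_at) was also called, by 1.38 (adjusted p = 0.0138). That call was lost without SMC-IRF9-TG pool 1, 2 or 3 (adjusted p = 0.05003, 0.0778 and 0.0661), by the methods' t-test (0.107) and with the Xist or poly-A block (0.0724 and 0.346). The probe sets 1460083_at and 1450104_at differed by 0.17 and −0.28 without passing. Adam17, which releases tumour necrosis factor, had 7.44, 8.24 and 8.23 in the SMC-IRF9-TG pools, against 5.60, 5.88 and 6.33 in the NTG pools (1421858_at). Here too every SMC-IRF9-TG pool was above every NTG pool, with means of 7.97 ± 0.46 in SMC-IRF9-TG and 5.93 ± 0.37 in NTG (SD, n = 3 each) and a difference of 2.04 (1.37 to 2.70, limma adjusted p = 0.0114). It did not pass without SMC-IRF9-TG pool 2 or 3 (1.90 and 1.91, adjusted p = 0.0675 and 0.0540, within a range of 0.00667 to 0.153 over all alternatives). Neither protease passed by the methods' t-test or with a block for the arrays of high Xist or of low poly-A controls. The other Adam17 probe sets differed by 0.62 (1421859_at) and 0.18 (1421857_at) and did not pass. With all probe sets of a gene averaged, Adam10 and Adam17 differed by 0.76 and 0.95 and did not pass (adjusted p = 0.0571 and 0.0767). The study listed both proteases from these arrays, so they are not independent evidence. The primers of its real-time PCR include Adam10 but not Adam17, and no PCR values were used here. The macrophage sum was at least 3981 in each SMC-IRF9-TG pool and at most 343 in each NTG pool. Its part was not tested.

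**Figure D3:**
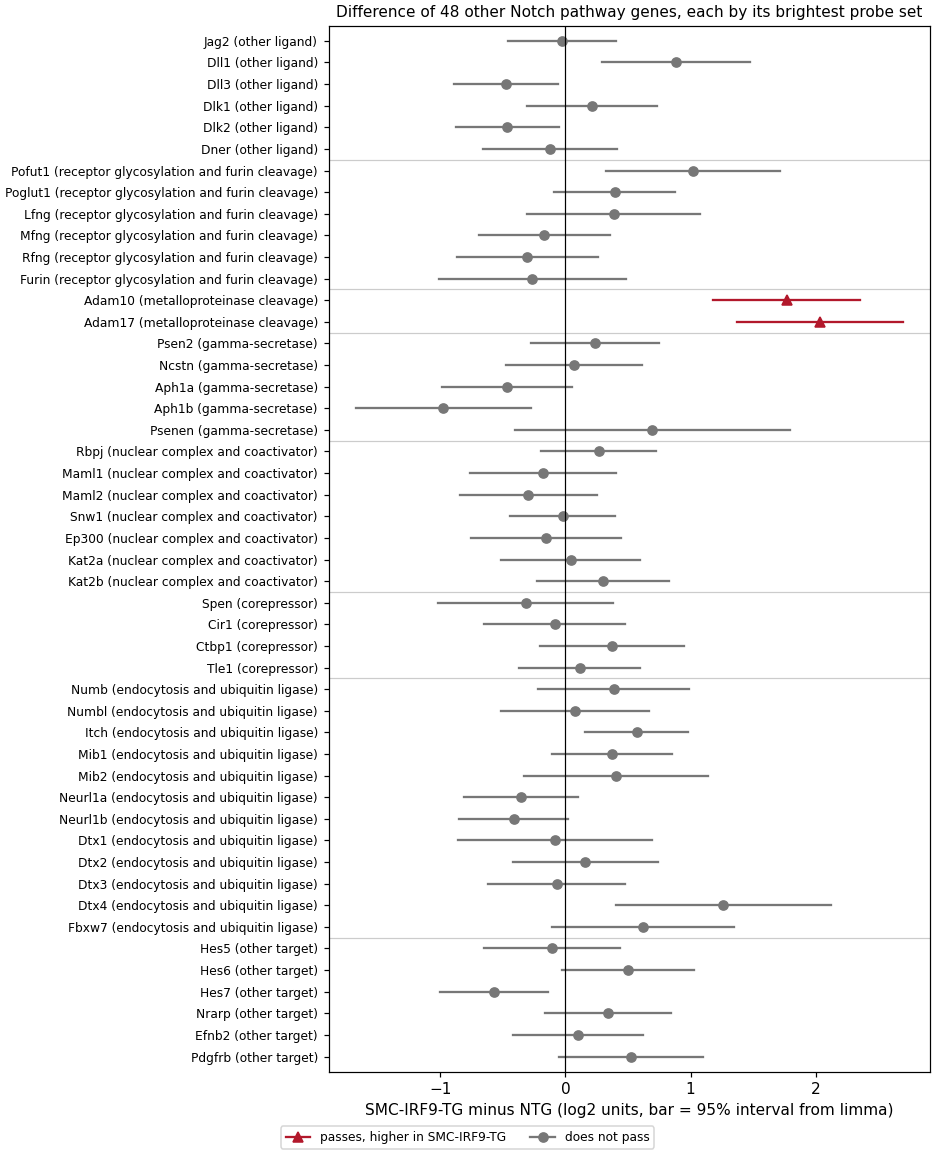
Difference between SMC-IRF9-TG and NTG arteries in log2 units (horizontal axis) for 48 other pathway genes, each by its brightest probe set, grouped by role, with the 95% interval from limma as a bar. Adam10 and Adam17 (red triangles) lie at 1.77 and 2.04, and the 46 others (grey circles) did not pass.

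No other step of the pathway held a called gene by its brightest probe set. The genes named here are those with the highest probe-set value in their role, which is a rule for choosing them and not a comparison of levels between genes. Among 6 further ligands, Dll1, a Delta-like ligand, had 6.45 ± 0.43 in SMC-IRF9-TG and 5.56 ± 0.23 in NTG (SD, n = 3 each; difference 0.89, adjusted p = 0.111). For receptor glycosylation and furin cleavage (6 genes), the glucosyltransferase Poglut1 differed by 0.39 (adjusted p = 0.296). Psenen, a subunit of γ-secretase (5 genes), had 9.11 ± 0.46 in SMC-IRF9-TG and 8.42 ± 1.04 in NTG (difference 0.69, adjusted p = 0.398). The differences of the 5 γ-secretase genes ran from −0.97 to 0.69, with 3 above 0 and 2 below. Rbpj, the DNA-binding partner of the receptor's intracellular domain, stood for 7 genes of the nuclear complex, and its call depended on the probe set. The difference was 0.27 in the brightest probe set (1454896_at, adjusted p = 0.434) and 0.74 in 1418114_at (adjusted p = 0.136). The probe set 1448957_at had 6.62, 6.32 and 6.51 in SMC-IRF9-TG and 5.15, 5.51 and 5.68 in NTG, and its difference of 1.04 passed (adjusted p = 0.0426). In all 3 Rbpj probe sets the SMC-IRF9-TG pools were above the NTG pools. With the 3 averaged, Rbpj differed by 0.68 and passed (adjusted p = 0.0493). By itself, 1448957_at passed after array centring (limma adjusted p = 0.0222), with dim probe sets left out (0.0361) and with array weights (0.0277). It also passed without NTG pool 3 (adjusted p = 0.0369) but in none of the other 5 fits that left out 1 pool (0.0524 to 0.188). It did not pass after quantile normalization either, where its difference was 0.74 (adjusted p = 0.154), nor with the trended and robust prior (0.0640), by the methods' t-test (0.143), with the replicate block (0.0946), with the Xist block (0.206) or with the poly-A block (0.587). The corepressor Ctbp1 (4 genes) differed by 0.37 (adjusted p = 0.391). Of 12 genes of endocytosis and ubiquitin ligation, Itch, a ligase that marks receptors for degradation, had 7.78 ± 0.12 in SMC-IRF9-TG and 7.21 ± 0.02 in NTG (difference 0.57, adjusted p = 0.131). Among 6 other targets, Pdgfrb, the PDGF receptor of mural cells, had 10.30 ± 0.42 in SMC-IRF9-TG and 9.77 ± 0.20 in NTG (difference 0.53, adjusted p = 0.251), and none of Hes5, Hes6, Hes7, Nrarp and Efnb2 passed.

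The calls of Hes1 and Notch4 differed in how far they held when the values were processed otherwise. At the same threshold, Hes1 passed in 13 of 15 alternative fits, with differences from −2.29 to −1.98, and missed the threshold by the methods' t-test (adjusted p = 0.0849) and with the poly-A block. Notch4 1449146_at passed in 3 of 15, with differences of 1.22 to 1.93 and adjusted p from 0.0307 to 0.218. Jag1 1434070_at passed in none of 15, with differences of 0.59 to 1.44 and adjusted p from 0.0505 to 0.756.

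**Figure D4:**
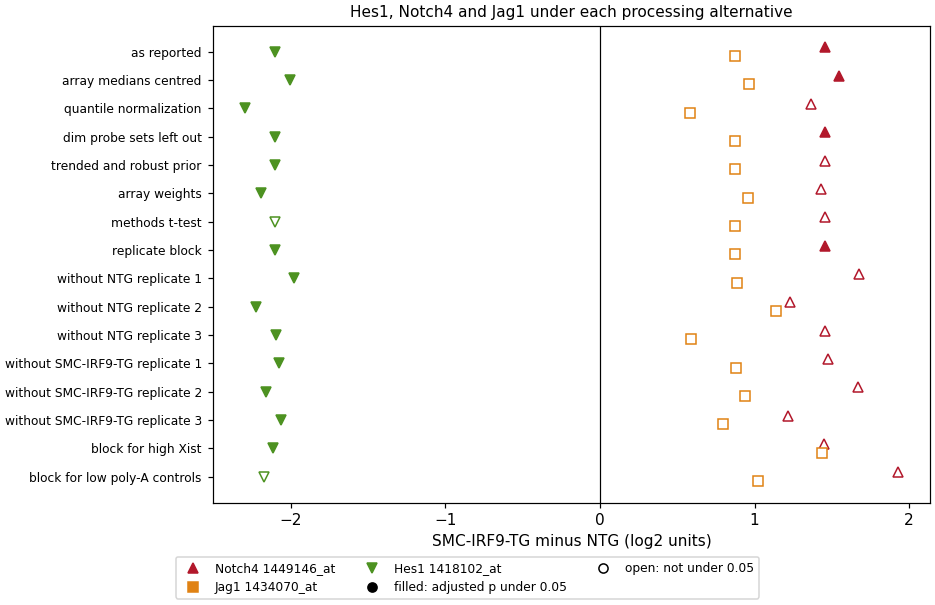
Difference between SMC-IRF9-TG and NTG arteries in log2 units (horizontal axis) for Hes1, Notch4 1449146_at and Jag1 1434070_at as reported and under 15 alternatives (vertical axis), filled where the adjusted p was under 0.05. Hes1 lies between −2.29 and −1.98 throughout, Notch4 is filled in 4 of the 16 lines, and Jag1 in none.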

How the data were processed

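Total RNA from pooled carotid arteries was measured on 6 Affymetrix arrays, 3 from SMC-IRF9-TG and 3 from NTG mice. Per the submitters' processing notes, the authors used Affymetrix Expression Console and RMA (versions: not given in the sources used here) to obtain the deposited log2 level of each probe set. RMA as usually run subtracts background, normalizes by quantiles and summarizes probes, but these arrays do not share a distribution. Lower quartiles were 2.33 to 2.41 in SMC-IRF9-TG and 2.57 to 2.66 in NTG, and upper quartiles 5.25 to 5.33 in SMC-IRF9-TG and 4.97 to 5.08 in NTG, so quantile normalization over all 6 arrays is not seen in the deposited values. Scanner files were not used here, so detection was not assessed per probe set, and levels were not compared between genes. Array data give no read depth, and the number of arrays limits the precision.

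The 45101 probe sets included 64 Affymetrix controls, and the other 45037 entered the tests as deposited, with neither renormalization nor a filter on low values. Groups were taken from the genotype labels and compared with limma 3.58.1 (lmFit and eBayes, 2-sided) in R 4.3.3, with p-values adjusted by Benjamini-Hochberg across the 45037 tested and called at 0.05. The methods of the study name a t-test and no method for the arrays, and that test was run as an alternative. The labels call the pools biological replicates, so the error behind each p-value is that among pools. Exact permutation tests were made in Python 3.11.15 with scipy 1.17.1.

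All probe sets of the 10 Notch genes are described. Of the other pathway genes, those that passed are named, and otherwise the gene of highest mean in each role; of each marker list, the 2 genes of highest mean could be named. Members and lists were chosen with earlier results of these data known. Symbols came from the platform annotation and, for genes outside the 10 members, were updated through gene IDs to RefSeq. Promoter windows are those of RefSeq, GRCm38.p6. The limma step was tested on simulated data for SMC-IRF9-TG against NTG over 45037 probe sets, and called 15 of 67 probe sets changed by 1 log2 unit, 63 of 67 changed by 2 and 66 of 66 changed by 4, with 10 calls among 44837 left unchanged. The simulated noise was independent and had the same spread in every array. The real arrays were unequal, with weights of 0.34 to 0.83 in NTG and 1.24 to 2.60 in SMC-IRF9-TG, so these rates need not hold for them. Alternatives were array centring, quantile normalization, a filter on dim probe sets, a trended and robust prior, array weights and the t-test. Further ones were a block for the replicate number, a threshold of 0.1 and each pool left out in turn. For pathway genes, Notch4 and Jag1, the mean of all probe sets was also tested. Blocks for the arrays of high Xist and of low poly-A controls were added after seeing the data.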

Additional observations from a re-analysis of the deposited data

How the results depend on the processing

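The count of Notch probe sets called higher was 1 as reported, 0 after quantile normalization, with a trended and robust prior, with array weights, by the methods' t-test and with either block added after seeing the data (high Xist, low poly-A controls), 2 at a threshold of 0.1, and 0 to 0 with each pool left out. The count called lower was 1, 0 by the t-test and with the poly-A block, and 1 to 1 with each pool left out. For the 48 other pathway genes the count called higher was 2, 0 by the t-test and with either added block, 1 with probe sets averaged (Rbpj) and 0 to 2 with each pool left out, where Dtx4 passed without NTG pool 1 (1.73, against 1.26 as reported, while its other probe set, 1455711_at, differed by 0.05 and 0.07). The count called lower was 0, and 0 to 1 with each pool left out (Aph1b without NTG pool 3). There Aph1b differed by −1.30, against −0.97 as reported, and its other probe set, 1435793_at, by −1.20 and −0.87. Over all probe sets 1237 were called, 700 after quantile normalization, 1 by the t-test (8364 at an unadjusted p under 0.05), 192 with the Xist block, 55 with the poly-A block, 2864 at 0.1 and 320 to 1851 with each pool left out (320 without SMC-IRF9-TG pool 2, 1851 without NTG pool 3). Same-numbered pools did not deviate together (r = −0.15, −0.00 and 0.03), and differently numbered pools had r from −0.12 to 0.13. No pairing by number was seen, but deviations from means of 3 pools cannot exclude one. With the replicate number as a block 730 probe sets were called, and the Notch and pathway counts kept their values of 1, 1, 2 and 0. Differences that changed sign, none of them called, were as follows. Notch2 1455556_at was 0.025 after centring, and 0.043 with array weights, where Heyl 1419303_at was −0.020. After quantile normalization Notch1 1418633_at was −0.13, Notch1 1418634_at −0.021, Jag1 1421105_at 0.043, Hey1 −0.12 and Hey2 −0.12. With the Xist block Notch1 1418633_at was −0.022, Notch2 1455556_at 0.39, Notch3 1421964_at 0.46, Heyl 1419302_at 0.24, Heyl 1419303_at −0.25 and Heyl 1438886_at 0.29. With the poly-A block Notch2 1455556_at was 0.11, Notch3 1421964_at 0.14, Notch3 1421965_s_at 0.15, Heyl 1419302_at 0.19 and Heyl 1438886_at 0.16. With each pool left out the ranges were −0.57 to 0.11 for Notch3 1421964_at, −0.30 to 0.17 for Notch2 1455556_at, −0.32 to 0.43 for Heyl 1419303_at, −0.035 to 0.40 for Dll4 1421827_at, −0.092 to 0.19 for Hey1, −0.039 to 0.36 for Hey2, −0.51 to 0.10 for Heyl 1419302_at and −0.94 to 0.075 for Heyl 1438886_at. The cause of these changes was not tested. The dim filter kept 16 of the 20 probe sets, and left out Notch4 1436901_at and 1456263_at, Jag1 1421105_at and Dll4 1421827_at. Either added block leaves 1 pool of a group to carry the difference, NTG pool 3 or SMC-IRF9-TG pool 3.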
